A study of Mus musculus with 10 samples.

Results

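The genes of the aminoacyl-tRNA synthetases were followed in mouse embryonic stem cell (ESC) lines from mothers on a low protein diet (LPD) or a normal protein diet (NPD). A list of 36 gene symbols, 20 of cytosolic and 16 of mitochondrial enzymes, was looked up in the deposited expression table. Each of the 36 was found as a single row among the 20206 genes. The study derived C57BL/6 ESC lines from blastocysts of mothers, 7 to 9 weeks old, that were fed either LPD with 9% casein or NPD with 18% casein from mating until embryonic day 3.5. RNA was sequenced from 5 LPD lines (lines 1, 4, 6, 20 and 40) and 5 NPD lines (lines 8, 15, 21, 36 and 51). Both groups were derived on fibroblast feeders and grown without feeders for RNA. The study describes the lines as male and from different mothers, so each line stands for its own embryo. The diet was given to the mother, and no allele or agent is named for the cells of either group. The comparison asks whether the enzymes that charge tRNA differ between the lines of LPD and NPD mothers, and whether cytosolic and mitochondrial enzymes differ alike.

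Aminoacyl-tRNA synthetases join each amino acid to its own tRNA and so supply the ribosome with substrates. Mammalian cells use separate nuclear genes for most of the enzymes that work in the cytosol and in mitochondria, the latter with symbols that end in the digit 2, while Gars and Kars encode the glycine and lysine enzymes of both compartments. When amino acids are short or the endoplasmic reticulum is stressed, the kinases of the integrated stress response raise translation of the transcription factor Atf4, which is known to induce many cytosolic synthetase genes together with amino acid synthesis and transport genes. Several cytosolic enzymes are held in the multisynthetase complex on the scaffold proteins Aimp1, Aimp2 and Eef1e1.

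Values are estimated counts per gene, normalized between lines by the authors, and are called normalized values here. The lines held between 5853541 and 24253816 read equivalents, with LPD lines 4, 40 and 6 below the other lines, which had at least 20302072. All 7 ESC markers examined, among them Pou5f1 and Nanog, were above 100 in every line. NPD line 15 stood apart. The median of its X-linked genes lay 0.49 above the 10-line median on the log2 scale, the Y-linked gene Ddx3y was at 7.70 against 1110 to 1493 in 8 of the other lines, and the summed level of 7 fibroblast markers was 5465, the highest of the lines (307 to 3225 in LPD). Dcn, a defining fibroblast marker, was at 33.5 in it, at 15.7 in LPD line 6 and at 0 in 4 lines. Col1a1 was at 2709 in NPD line 15, 1704 in LPD line 6 and 1016 in NPD line 8, against 131 to 534 in the other lines. The summed levels of 4 primitive endoderm markers (361 to 1971 in LPD, 119 to 1930 in NPD) and of 4 trophectoderm markers (94.8 to 934 and 87.3 to 483) overlapped between the diets. The part of these cell types in the results was not tested. LPD line 4 had Ddx3y at 174, with an X-linked median of 0.00. The X-linked and Y-linked values of NPD line 15, and the low Ddx3y of LPD line 4, go against the description of the lines as male. The sex of these lines was not tested. In NPD line 8 the median of 472 genes on chromosome 3 lay 0.18 above the 10-line median. Values without these lines are given where a result rests on them.

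Promoters were examined for the binding element of Atf4, because Atf4 is known to induce a part of the cytosolic list. RefSeq windows from 250 bases before to 50 bases after the transcription start (GRCm38.p6) were at hand for 27 of the 36 genes, 13 cytosolic and 14 mitochondrial. They were searched on both strands for TGATGNAA, the core of the C/EBP-ATF response element that Atf4 binds with a C/EBP partner, and 3.97% of all 32851 windows hold it. It was found in 5 cytosolic genes (Aars, Gars, Iars, Tars and Yars) and in no window of the other 8 cytosolic or of the 14 mitochondrial genes. All 5 belong to the 12 cytosolic enzymes listed here as known to be induced through Atf4, of which 8 had a window. The 5 windows are shown from 130 bases before the start to 20 bases after it, each in the direction of transcription with the matches in capitals. The window of Fars2, the mitochondrial gene with the largest difference between diets, is shown beside them and has no capitals because it has no match.
Aars (chr8:111033712-111033861, plus strand): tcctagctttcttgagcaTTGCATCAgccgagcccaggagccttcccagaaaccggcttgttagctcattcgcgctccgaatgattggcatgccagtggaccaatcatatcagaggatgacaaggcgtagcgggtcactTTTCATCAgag
Gars (chr6:55037871-55038020, plus strand): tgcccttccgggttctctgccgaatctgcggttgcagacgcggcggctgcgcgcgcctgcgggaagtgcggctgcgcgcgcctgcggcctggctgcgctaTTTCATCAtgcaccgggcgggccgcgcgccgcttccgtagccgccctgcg
Iars (chr13:49682000-49682149, plus strand): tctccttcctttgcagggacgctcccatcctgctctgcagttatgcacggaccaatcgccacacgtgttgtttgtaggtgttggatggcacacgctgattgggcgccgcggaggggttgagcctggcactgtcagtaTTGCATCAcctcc
Tars (chr15:11399639-11399788, minus strand): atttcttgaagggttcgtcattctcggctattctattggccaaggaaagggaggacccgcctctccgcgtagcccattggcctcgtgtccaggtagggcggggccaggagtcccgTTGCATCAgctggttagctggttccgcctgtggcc
Yars (chr4:129189773-129189922, plus strand): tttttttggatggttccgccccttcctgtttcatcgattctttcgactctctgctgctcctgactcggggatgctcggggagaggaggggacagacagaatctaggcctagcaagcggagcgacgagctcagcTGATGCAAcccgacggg
Fars2 (chr13:36117513-36117662, plus strand): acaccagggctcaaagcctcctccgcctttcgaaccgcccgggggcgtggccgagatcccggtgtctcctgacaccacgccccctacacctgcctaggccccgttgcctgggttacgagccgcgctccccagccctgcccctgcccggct

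Counted from 1 at the first transcribed base, the matches start at -112 and 10 in Aars, -30 in Gars, 8 in Iars, -15 in Tars and 4 in Yars. In Yars the element reads forward, and in the other 4 it lies on the opposite strand and is printed as TTNCATCA. A match describes these letters only, and binding was not measured.

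Cytosolic enzymes were expressed well above the mitochondrial ones. Per kilobase of the principal transcript, the mean normalized value of the cytosolic enzymes ran from 749.6 per kb in Tars, the threonine enzyme, to 3150 in Gars, the glycine enzyme, with a median of 1264. The mitochondrial enzymes ran from 19.3 per kb in Wars2 (tryptophan) to 3824 in Lars2 (leucine), with a median of 172. In all 10 lines each cytosolic enzyme lay above each mitochondrial enzyme other than Lars2, the highest of which was Tars2 at 498 per kb. Lars2 lay above every cytosolic enzyme in 8 of 10 lines, and its normalized values were 17595, 12848, 14018, 12224 and 21037 in LPD lines 1, 4, 6, 20 and 40 and 15191, 15264, 16672, 11260 and 12796 in NPD lines 8, 15, 21, 36 and 51. These overlapped between the diets, with LPD line 40 highest and NPD line 36 lowest. Near its 3' end the principal Lars2 transcript shares stretches of 72 and 50 bases, at 98.6% and 96.0% identity, with the genes Gm15564 and AA474408, which are not among the genes used here. The part of such reads in the level of Lars2 was not tested.

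Gars was the highest cytosolic enzyme per kilobase in 8 of 10 lines, and over the 10 lines it ranged from 2796 to 3816 per kb. Its neighbours in the order, Kars (2862 per kb) and Nars (2778), had ranges over lines that overlapped its own. Tars was the lowest in 9 of 10 lines, with normalized values of 2811, 2914, 3267, 3595 and 3032 in LPD lines 1, 4, 6, 20 and 40 and 2898, 2686, 3005, 2847 and 2968 in NPD lines 8, 15, 21, 36 and 51. The diets overlapped, although 3 LPD lines lay above every NPD line. Wars2 was the lowest mitochondrial enzyme in 9 of 10 lines. With the longest coding transcript as the length, the highest and lowest enzyme of each list stayed in place, and 20 of the 36 genes changed rank in their list.

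**Figure D1:**
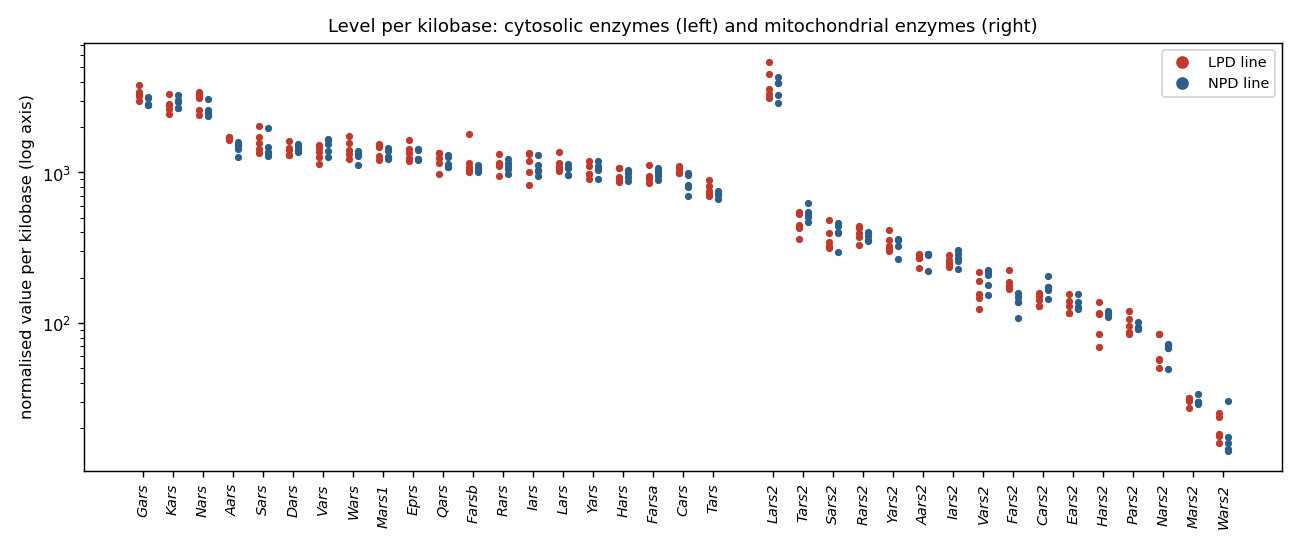
Normalized value per kilobase of the principal transcript (log axis) for each synthetase gene, ordered by mean level within the cytosolic and the mitochondrial enzymes, with 1 point per line, LPD in red and NPD in blue. The cytosolic enzymes lie above the mitochondrial ones, with Lars2 apart at a mean of 3824 per kb.

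No gene passed adjustment between the diets in the test of gene values used here. The study's own test of transcripts with sleuth did report transcripts with an adjusted p under 0.1. Atf4 was among them, higher in LPD and also so by qRT-PCR in the study, and no synthetase gene was. Among the 14354 genes whose mean value was 10 or more, 0 (0.0%) had an adjusted p under 0.1 (limma, Benjamini-Hochberg), and 721 (5.02%) had an unadjusted p under 0.05, of which 408 (2.84% of genes tested) were higher and 313 (2.18%) lower in LPD. All 36 synthetase genes were tested, and 5 of them had an unadjusted p under 0.05. Aars, Cars, Gars and Fars2 were higher and Cars2 was lower in LPD. The smallest adjusted p among the 36 was 0.681 for Fars2, so none of these differences stands after correction over all genes. Of the 721 genes, 56.6% were higher in LPD. When every line was scaled to the same total, 734 genes had such a p and 40.2% of these were higher. With no filter on low values it was 46.2% of 1021 genes. Scaling to the same total moved the median of all genes from 0.00 to -0.03.

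**Figure D2:**
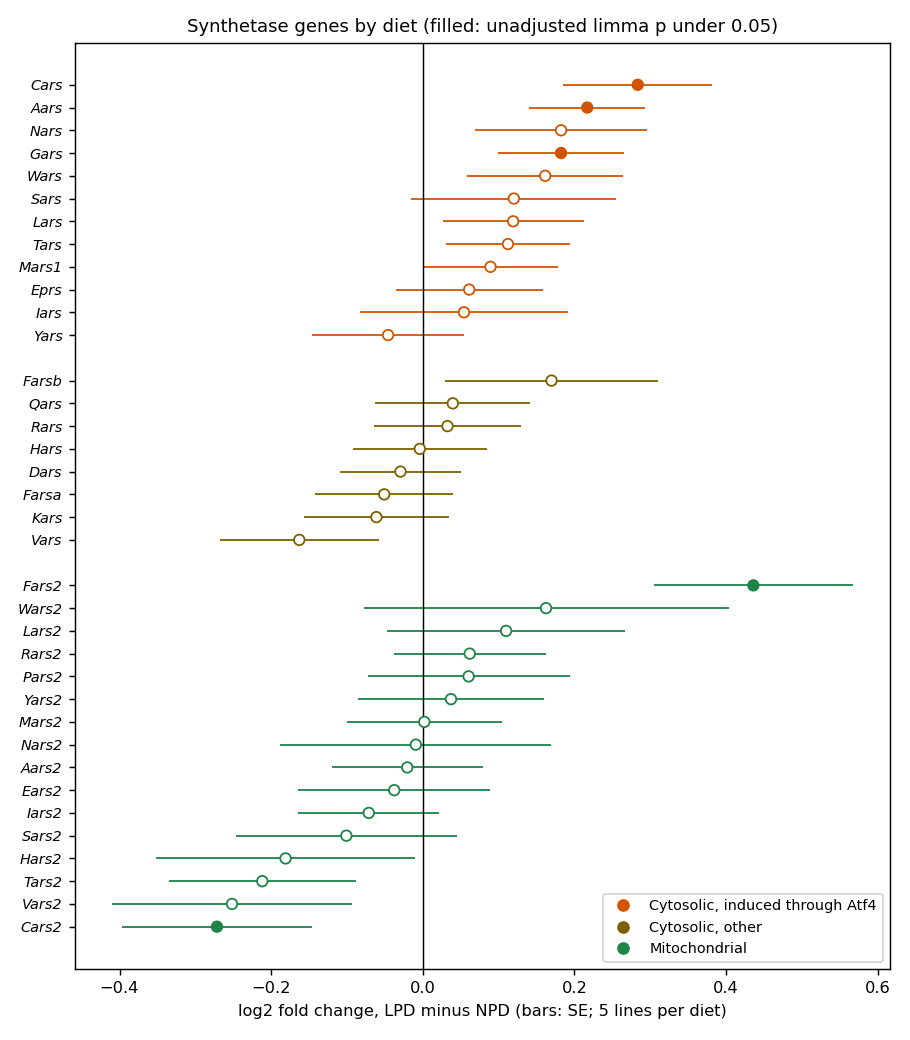
Log2 fold change (LPD minus NPD) of each synthetase gene with its standard error from limma, 5 lines per diet, grouped as cytosolic enzymes known as induced through Atf4, other cytosolic enzymes and mitochondrial enzymes. Filled points have an unadjusted p under 0.05, and in the first group 11 of 12 points lie above 0, in the last 7 of 16.

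Among the cytosolic enzymes, 14 of 20 were higher and 6 lower in LPD, with a median log2 fold change of 0.08, where 50.5% of all genes tested were higher and the median was 0.00. Of the 3797 genes with a mean of about 1000 or more, a level that every cytosolic enzyme exceeded, 56.4% were higher and the median was 0.02. Without LPD line 20 it was 11 higher and 9 lower with a median of 0.01, and without LPD line 4 and NPD line 15 it was 13 and 7 with a median of 0.09. Their 3 genes at an unadjusted p under 0.05 were all higher in LPD. Aars (chr8:111033144-111057664), the alanine enzyme, had normalized values of 9713, 9744, 9902, 9863 and 9515 in LPD lines 1, 4, 6, 20 and 40 and 9110, 7273, 8667, 8748 and 8258 in NPD lines 8, 15, 21, 36 and 51. The LPD lines lay close together and above each of the NPD lines, with NPD line 15 lowest. The means were 9747 ± 152 in LPD and 8411 ± 705 in NPD (SD, n = 5 each), a log2 fold change of 0.22 (SE 0.08, exact permutation test, two-sided, p = 0.00794, the smallest that 5 lines against 5 allow). By limma its unadjusted p was 0.0145 and its adjusted p 0.839. Without NPD line 15 the log2 fold change was 0.17 (limma, unadjusted p = 0.0461), and without both this line and LPD line 4 the unadjusted p (limma) was 0.0771. The annotated Aars transcripts run over Exosc6, a subunit of the RNA exosome on the same strand, for 1326 bases, and Exosc6 is not among the genes used here, so reads of the pair cannot be told apart. Gm24103 on the opposite strand overlaps Aars by 77 bases and is likewise not among them.

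Cars (chr7:143557230-143600090), the cysteine enzyme, had the largest difference of the cytosolic list. Its values were 3426, 3535, 3218, 3176 and 3309 in LPD lines 1, 4, 6, 20 and 40 and 3211, 2583, 3088, 2252 and 2659 in NPD lines 8, 15, 21, 36 and 51. Only NPD line 8 reached into the LPD range, above LPD line 20, and the NPD lines were the more scattered. The log2 fold change was 0.28 (SE 0.10, exact permutation test, p = 0.0159), with means of 3333 ± 148 and 2758 ± 391 (SD, n = 5 each) and an adjusted p of 0.839 (limma). With sequencing depth in the model it was 0.25 with an unadjusted p (limma) of 0.0680, and without LPD line 4 and NPD line 15 this p was 0.0655. The exact p was not under 0.05 when LPD line 1 or LPD line 4 was left out. Nor was it when NPD line 15 was left out together with LPD line 4 or LPD line 40. Cars overlaps Gm15580 on the opposite strand by 211 bases, and Gm15580 is not among the genes used here.

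Gars (chr6:55038007-55079500) had 7136, 7658, 8184, 9083 and 7825 in LPD lines 1, 4, 6, 20 and 40 and 7428, 6762, 7554, 6653 and 6694 in NPD lines 8, 15, 21, 36 and 51. LPD line 20 was highest, 4 LPD lines lay above every NPD line, and LPD line 1 lay within the NPD range. The log2 fold change of 0.18 (SE 0.08, exact permutation test, p = 0.0397, adjusted p = 0.987 by limma) was 0.13 without LPD line 20, where the unadjusted p (limma) was 0.108.

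**Figure D3:**
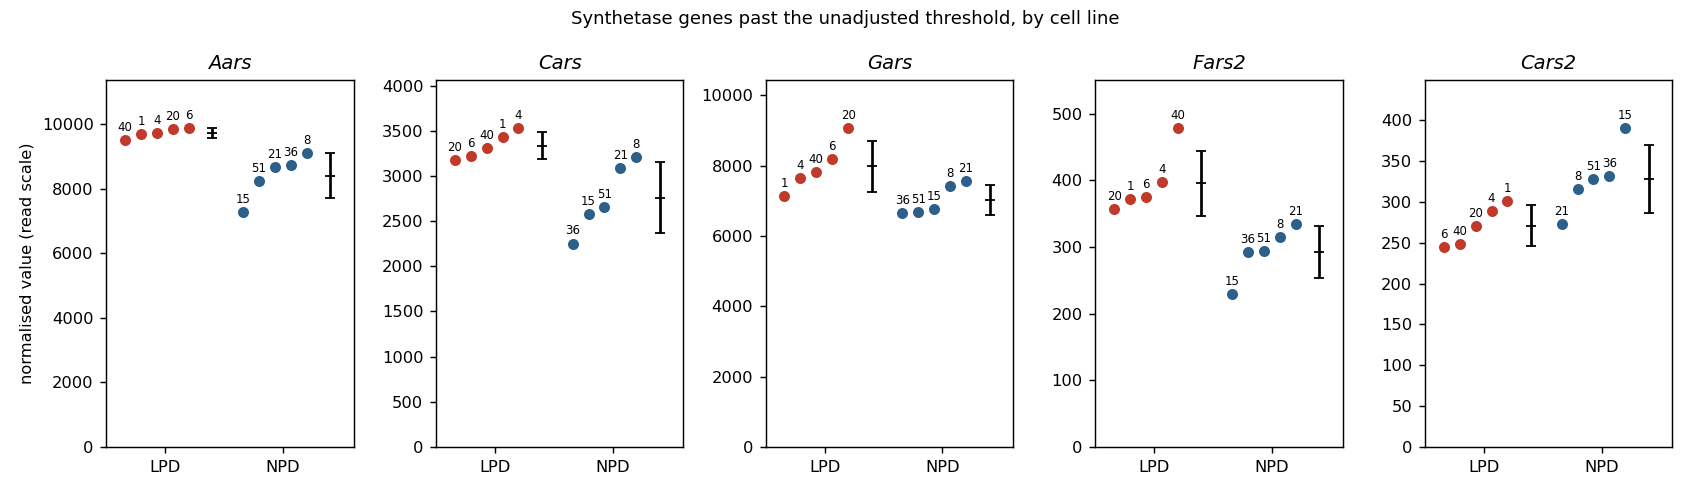
Normalized value in each of the 10 lines (points labelled by line number, LPD red, NPD blue) for the 5 synthetase genes at an unadjusted p under 0.05, with the mean and SD of 5 lines in black and axes from 0. The diets do not overlap in Aars and Fars2, and overlap in Cars, Gars and Cars2.

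The remaining 17 cytosolic genes had log2 fold changes from -0.16 to 0.18 and exact permutation p (5 lines against 5, two-sided) from 0.159 to 0.992. Farsb (chr1:78417975-78488897), the beta subunit of the phenylalanine enzyme, varied most over lines. It had 2118, 2207, 2058, 3692 and 2336 in LPD lines 1, 4, 6, 20 and 40 and 2094, 2035, 2150, 2187 and 2299 in NPD lines 8, 15, 21, 36 and 51. The value of LPD line 20 stood alone, and the log2 fold change of 0.17 (SE 0.14) was 0.02 without it. Farsb overlaps Sgpp2 on the opposite strand by 248 bases, and Sgpp2 had a mean of 11.5. Farsa, the alpha subunit and partner of Farsb, had 2053 in the same line, also its highest value, against 1563 to 1738 in the other LPD lines. Vars, the valine enzyme, had the lowest log2 fold change of the cytosolic list, -0.16 (SE 0.10, exact permutation test, p = 0.167).

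The cytosolic list was divided by what is known of Atf4. Of the 12 enzymes known as induced through it, 11 were higher in LPD and only Yars (tyrosine) was lower, with a median of 0.12 and 3 genes at an unadjusted p under 0.05. Of all genes tested, 50.5% were higher and 2.84% were higher at that p. Among genes with a mean of about 1000 or more, 56.4% were higher. Besides Aars, Cars and Gars, the largest log2 fold changes of the 12 enzymes were those of Nars (asparagine), 0.18 (SE 0.11), and Wars (tryptophan), 0.16 (SE 0.10). In each of these, 3 LPD lines lay above every NPD line, and neither reached an unadjusted p of 0.05. Of the 8 other cytosolic enzymes, 3 were higher and 5 lower, with a median of -0.02 and none at an unadjusted p under 0.05, but with sequencing depth in the model 5 were higher and 3 lower with a median of 0.03. In the same fit all 12 of the induced list were higher, with a median of 0.16. The difference between these parts of the list was not tested. Enzymes of the multisynthetase complex (Eprs, Iars, Lars, Mars1, Qars, Rars, Kars and Dars) had 6 of 8 members higher, a median of 0.05 and none at an unadjusted p under 0.05. Among them the largest was Lars (leucine), 0.12 (SE 0.09, exact permutation test, p = 0.246). The median was 0.06 in the 10 enzymes of class I, with 8 higher, and 0.12 in the 10 of class II, with 6 higher. For the 12 enzymes known as induced, 9 were higher and the median was 0.06 without LPD line 20, and 11 were higher with a median of 0.09 when every line was scaled to the same total.

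Among the mitochondrial enzymes, 7 of 16 were higher and 9 lower in LPD, with a median log2 fold change of -0.01. Fars2 (chr13:36117412-36726280), the mitochondrial phenylalanine enzyme, had the largest difference of all 36 genes. Its values were 372, 397, 374, 357 and 479 in LPD lines 1, 4, 6, 20 and 40 and 315, 230, 334, 293 and 294 in NPD lines 8, 15, 21, 36 and 51. The diets did not overlap, with LPD line 40 highest of all and NPD line 15 lowest. Aars and Fars2 were the 2 of 36 genes in which the diets did not overlap and LPD was higher, where 0.523% of all genes tested were so. The means of Fars2 were 396 ± 48.7 and 293 ± 39.1 (SD, n = 5 each), a log2 fold change of 0.44 (SE 0.13, exact permutation test, p = 0.00794). It had an unadjusted p under 0.05 in every fit tried, and its log2 fold change was 0.28 without both LPD line 40 and NPD line 15 (limma, unadjusted p = 0.0355). With sequencing depth in the model the log2 fold change was 0.37 (limma, unadjusted p = 0.0427). LPD lines 4, 6 and 40, which had the fewest reads, also had the highest values of Fars2. The transcripts of Fars2 and of Lyrm4, on the opposite strand, overlap by 115 bases at their starts. Lyrm4 had a log2 fold change of 0.08 (limma, unadjusted p = 0.673). Nrn1, also on the opposite strand, overlaps Fars2 by 501 bases and had a mean of 8.25.

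Cars2 (chr8:11513977-11550783), the mitochondrial cysteine enzyme, was the only synthetase gene at an unadjusted p under 0.05 that was lower in LPD. It had 302, 289, 245, 271 and 248 in LPD lines 1, 4, 6, 20 and 40 and 316, 391, 274, 332 and 329 in NPD lines 8, 15, 21, 36 and 51. NPD line 15 was highest, 3 LPD lines lay below every NPD line, and LPD lines 1 and 4 lay within the NPD range, above NPD line 21. The log2 fold change was -0.27 (SE 0.13, exact permutation test, p = 0.0317, adjusted p = 0.994 by limma), and -0.21 without NPD line 15 (limma, unadjusted p = 0.132) and -0.18 without LPD line 40 as well. The end of Cars2 overlaps Naxd on the opposite strand, and Naxd had a log2 fold change of 0.02 (limma, unadjusted p = 0.829).

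The other 14 mitochondrial genes had log2 fold changes from -0.25 (Vars2, valine) to 0.16 (Wars2) and exact permutation p (5 lines against 5) from 0.159 to 0.952. Tars2, the threonine enzyme, had -0.21 (SE 0.12), with 3 LPD lines below every NPD line. Wars2 (chr3:99141068-99239186) varied most over lines. It had 78.2, 70.3, 111, 104 and 80.5 in LPD lines 1, 4, 6, 20 and 40 and 134, 70.5, 63.9, 77.2 and 62.0 in NPD lines 8, 15, 21, 36 and 51. NPD line 8 was highest by a wide margin, and without it the log2 fold change moved from 0.16 to 0.36 (SE 0.24 with all lines; limma, unadjusted p without the line = 0.118). Wars2 lies on chromosome 3, as do Tars2 and Sars (serine), and NPD line 8, in which genes of that chromosome were high as a group, had the highest value of Tars2 (1504) and, at 7045, a value of Sars far above the 4600 to 5268 of the other NPD lines. Without it the log2 fold change was 0.23 for Sars, against 0.12 with all lines and 0.03 without LPD line 20, and -0.15 for Tars2. The part of chromosome 3 in these values was not tested. Over lines, the SD on the log2 scale had a median of 0.15 in cytosolic and 0.22 in mitochondrial genes. 

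For 17 pairs of a cytosolic and a mitochondrial enzyme that use the same amino acid, the log2 ratio was taken within each line, which cancels the scaling of the line. The ratio was higher in LPD in 12 pairs and lower in 5, with a median difference of 0.09. In 4 pairs the exact permutation test (two-sided, 5 lines against 5, no adjustment over pairs) gave p under 0.05. Of these, Aars/Aars2, Cars/Cars2 and Farsa/Fars2 hold a gene that had an unadjusted p under 0.05 by itself. Eprs and Fars2 recur among the 17 pairs, so the pairs are not independent. The Cars/Cars2 log2 ratio was 3.50, 3.61, 3.71, 3.55 and 3.73 in LPD lines 1, 4, 6, 20 and 40 and 3.34, 2.72, 3.49, 2.76 and 3.01 in NPD lines 8, 15, 21, 36 and 51. The diets did not overlap, narrowly so for LPD line 1 against NPD line 21, and the difference was 0.55 (exact permutation test, p = 0.00794). Cars with 0.28 and Cars2 with -0.27 contributed alike to it.

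The Aars/Aars2 log2 ratio averaged 3.44 ± 0.12 in LPD and 3.20 ± 0.06 in NPD (SD, n = 5 each). The diets did not overlap, and the difference was 0.24 (exact permutation test, p = 0.00794), and Aars2 itself had a log2 fold change of -0.02. The Tars/Tars2 ratio was higher in LPD by 0.32 (exact permutation test, p = 0.0238), and its exact p was not under 0.05 without LPD line 4 and NPD line 15. Here 4 LPD lines lay above every NPD line, although neither gene alone reached an unadjusted p of 0.05. Tars2 lies on chromosome 3, and NPD line 8, where that chromosome was high, had the lowest Tars/Tars2 ratio, 0.95. Without NPD line 8 the difference was 0.27, with an exact p still under 0.05. The Farsa/Fars2 ratio went the other way, by -0.49 (exact permutation test, p = 0.0238), with 4 LPD lines below every NPD line and LPD line 20 inside the NPD range, and its exact p was not under 0.05 without NPD line 15 and either LPD line 4 or LPD line 40. With the other subunit, the Farsb/Fars2 ratio differed by -0.27 (exact permutation test, p = 0.246). The exact tests of the other 12 pairs gave p (5 lines against 5) from 0.206 to 1, and 3 of these pairs (Eprs/Pars2, Lars/Lars2 and Wars/Wars2) had differences of 0.01 or less in size.

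Averaged over the list as the log2 deviation from the 10-line median, the cytosolic enzymes stood at -0.06, 0.03, 0.04, 0.26 and -0.01 in LPD lines 1, 4, 6, 20 and 40 and at 0.06, -0.12, 0.00, -0.01 and -0.04 in NPD lines 8, 15, 21, 36 and 51. The diets overlapped, and LPD line 20 stood above all others. It had the highest value of the 10 lines in 13 of the 20 cytosolic genes, in both parts of the list (7 of 12 and 6 of 8), and in 3 of the 16 mitochondrial genes. The share of all genes in which LPD line 20 was highest was not counted. Its summed value was the largest of the lines (18324979). The medians of its chromosomes lay between -0.01 (chromosome 12) and 0.09 (chromosome 18) from the 10-line median. The mitochondrial enzymes stood between -0.08 and 0.02 in LPD and between -0.08 and 0.10 in NPD. The cytosolic minus the mitochondrial mean was 0.07 ± 0.10 in LPD and -0.02 ± 0.03 in NPD (SD, n = 5 each). The diets did not overlap, but LPD line 1 (0.0139), LPD line 40 (0.0142) and NPD line 21 (0.0137) were almost equal, and LPD line 20 (0.25) was by far the highest. The difference between diets was 0.09, or 0.05 without LPD line 20, and was no larger than the SD within LPD. As the members were chosen with earlier results known, it was not tested.

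**Figure D4:**
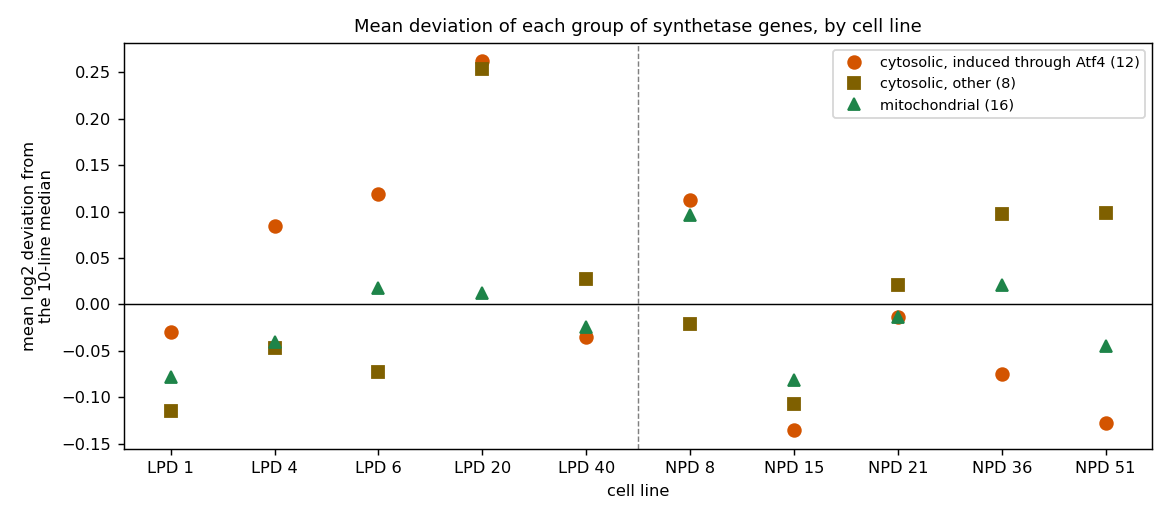
Mean log2 deviation from the 10-line median for the 12 cytosolic enzymes known as induced through Atf4, the 8 other cytosolic enzymes and the 16 mitochondrial enzymes, in each line, with LPD to the left of the dashed line and NPD to the right. LPD line 20 is high for both cytosolic groups (0.26 and 0.25) and near 0 for the mitochondrial group (0.01).

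Across the 10 lines, the synthetase genes with the highest correlation with Atf4 were 5 cytosolic enzymes of the induced list. Pearson's r with Atf4 on log2 values was 0.86 for Aars (rho 0.88, permutation p = 4.3e-04 and 0.00167), 0.83 for Cars (rho 0.77, permutation p = 0.00232 and 0.0130), 0.79 for Gars (rho 0.73, permutation p = 0.00567 and 0.0195), 0.78 for Nars (rho 0.75, permutation p = 0.0120 and 0.0174) and 0.74 for Lars (rho 0.68, permutation p = 0.00840 and 0.0348). None passed adjustment over the 14353 genes tested with Atf4, and the smallest adjusted p of the 36 genes was 0.387, for Aars. The permutation p of r was under 0.05 and r above 0 in 5 of the 12 enzymes of the induced list, in none of the 8 other cytosolic enzymes and in 1 of the 16 mitochondrial enzymes (Fars2, r 0.66, rho 0.71, permutation p = 0.0343 and 0.0269), where 3.4% of all genes were so. For r below 0 it was 0 of 36 synthetase genes, against 2.97% of all genes. The 12 enzymes had r above 0 in every case and a median r of 0.59, against 0.05 in the other cytosolic enzymes, 0.07 in the mitochondrial enzymes and 0.01 in all genes tested. In these, r was above 0 in 4 of 8, in 10 of 16 and in 7257 of 14353 genes. Atf4 itself was higher in LPD (log2 fold change 0.48, SE 0.11, exact permutation test, p = 0.0159). With the mean of each diet removed, r stayed above 0 for all 12 enzymes, with a median of 0.59, and was largest for Nars (0.78), Iars (0.76) and Lars (0.76). It was then also above 0 in 7 of the 8 other cytosolic enzymes (median 0.17) and 11 of the 16 mitochondrial enzymes (median 0.18). Of all 14353 genes, 7219 were then above 0, with a median of 0.00. For Fars2 it was then 0.03.

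LPD line 20, with the highest Atf4 (8594), and NPD line 15, with the lowest (4678), lay farthest from the median of Atf4. Without both, r was 0.87 for Aars, 0.89 for Cars, 0.64 for Gars, 0.68 for Nars and 0.49 for Lars, and the median was 0.41 in the 12 enzymes. In the other cytosolic enzymes the median was then -0.64 and in the mitochondrial enzymes -0.35, while it was 0.01 in all genes. For Wars, Tars and Mars1 r was then -0.05, 0.11 and 0.02, against 0.57, 0.61 and 0.34 over 10 lines. Of the 5 genes with the Atf4 element in the promoter window shown above, r over 10 lines was lowest in Yars, at 0.20.

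**Figure D5:**
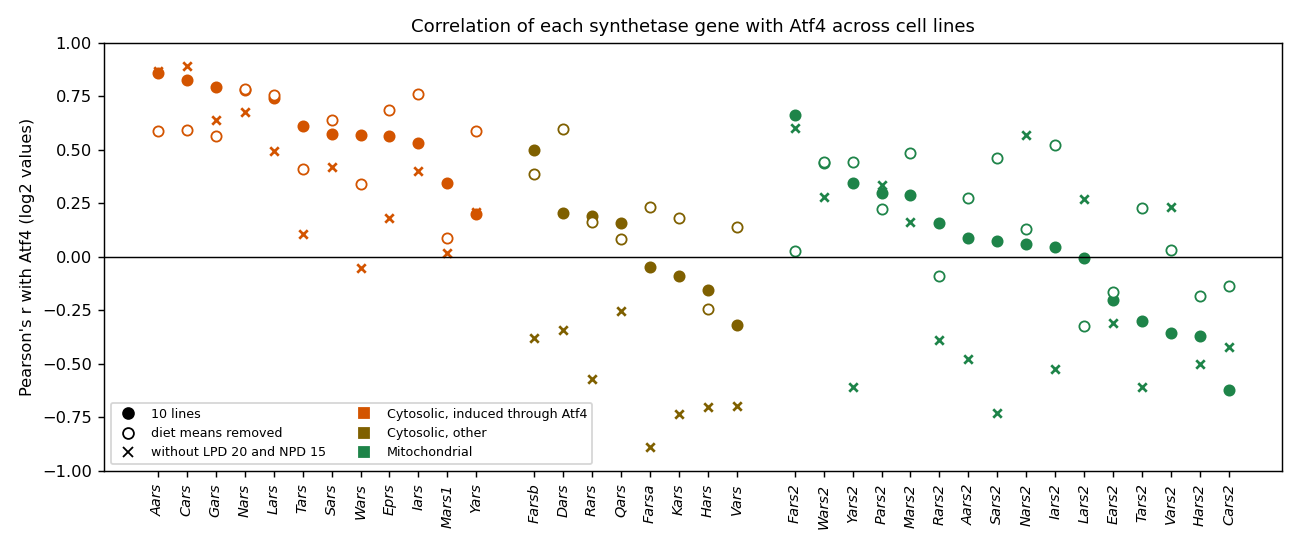
Pearson's r of each synthetase gene with Atf4 on log2 values over 10 lines (filled points), with the mean of each diet removed (open points) and without LPD line 20 and NPD line 15 (crosses). The enzymes known as induced through Atf4 lie above 0 in the filled and open points (medians 0.59 and 0.59), and the crosses of the other cytosolic enzymes lie below 0 (median -0.64). Open points also lie above 0 in 7 of the 8 other cytosolic enzymes (median 0.17).

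Other genes of the pathway were taken as fixed lists. The scaffold genes of the multisynthetase complex had log2 fold changes of 0.01 (Aimp1), 0.03 (Aimp2) and 0.13 (Eef1e1), with none at an unadjusted p under 0.05. The subunits of the mitochondrial glutamine amidotransferase had log2 fold changes of 0.08 (Qrsl1), -0.22 (Gatb, on chromosome 3, and -0.13 without NPD line 8) and -0.05 (Gatc), and the formyltransferase Mtfmt had -0.06, with none at an unadjusted p under 0.05. Of 8 genes that make selenocysteinyl-tRNA or edit, export or deliver charged tRNA, such as the elongation factors Eef1a1 and Tufm and the exporter Xpot, 2 were higher and 6 lower, from -0.14 to 0.10, again with none. In the amino acid response genes, 8 of 8 were higher in LPD, with a median of 0.37 and 6 at an unadjusted p under 0.05, where 50.5% of all genes tested were higher and 2.84% were higher at that p. The 6 were Atf4, the pseudokinase Trib3 (0.39), the glutathione-degrading enzyme Chac1 (1.09), the leucine sensor Sesn2 (0.38), asparagine synthetase Asns (0.32) and Psat1 of serine synthesis (0.24). With all lines their adjusted p ran from 0.435 to 0.987 (limma). Without LPD line 40 the adjusted p (limma) was 0.0942 for each of Atf4, Chac1 and Sesn2. By the exact permutation test (two-sided, 5 lines against 5), p was under 0.05 for Atf4 (0.0159) and Chac1 (0.0238) only. The exact permutation test gave p = 0.0556 for Sesn2 and Psat1, 0.0794 for Trib3 and 0.0873 for Asns. With sequencing depth in the model, 8 of 8 were higher, and 3 (Atf4, Chac1 and Sesn2) had an unadjusted p (limma) under 0.05. Without NPD line 15, which had the lowest Atf4, Chac1 and Trib3, 8 of 8 were still higher, with a median of 0.33, and 4 (Atf4, Chac1, Sesn2 and Psat1) had an unadjusted p under 0.05. Without LPD line 4 as well there were 3 (Atf4, Chac1 and Psat1), and with every line scaled to the same total 7 of 8 were higher and 4 had such a p. The Atf4 element was found in a promoter window of 3 of the 8 (Chac1, Trib3 and Asns) and in no window of Atf4, Cebpg, Ddit3, Psat1 and Sesn2. Sequence outside these windows was not searched. The synthetase genes at an unadjusted p under 0.05 had log2 fold changes of at most 0.44.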

How the data were processed

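RNA sequencing of 10 ESC lines was analysed, each line being 1 replicate. Every column of values could be tied to a line by its label, leaving 0 without one. Per the submitters' processing notes and the paper, adaptors were trimmed with cutadapt, transcripts were quantified with Salmon on GRCm38 transcripts, and the study tested transcripts with sleuth 0.30.0. The values the authors deposited are a signal per gene: estimated counts after a normalization that the name of the table ties to DESeq2 size factors. How transcripts were summed to genes is not given in the sources used here.

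Genes were matched to GENCODE M21 by identifier (19891 of 20206), and Mars1 is listed there as Mars. No member had several rows or values identical to another gene. In 4269 genes with 1 transcript, low values were whole multiples of 1 read (tolerance 0.15) in 88.5% to 99.6% of cases, but over all genes in 63.9% to 69.7%, so no count model was used. Read equivalents are the total divided by the value of 1 read. Values were tested as log2(value + 1) in 14354 genes with a mean of at least 10 with limma 3.58.1 (R 4.3.3, mean-variance trend, Benjamini-Hochberg, two-sided), which understates the change of low genes. The method was tested on simulated data. Single members and ratios were tested by exact permutation over 252 assignments of lines, and correlations with 100000 permutations. There is 1 library per line, so p-values measure the spread between lines. In these bulk samples fewer expressing cells and less RNA per cell cannot be told apart. Strand use in counting is not given in the sources used here, so genes on the opposite strand are named beside the members whose values in every line are given. Transcripts of other genes were searched for shared sequence with blastn 2.17.0 (at least 50 bases, 95% identity), which 14 of 36 members had. The longest match in a gene of the table on no shared locus was Iars with Gm4849 (1656 bases, normalized values of 0 to 2.56). Promoters are from RefSeq, and 9 members had no window. Work was done in Python 3.11.15 with scipy 1.17.1, pandas 2.3.3, numpy 2.4.6 and matplotlib 3.10.9 for figures.

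The rule for named genes was all 36 members, with the value in every line for members at an unadjusted p under 0.05 or whose diets do not overlap, and for the highest, lowest and most variable member of each list. Of the further pathway genes, 1 is not reported here. Members, gene lists and tests were chosen with earlier results of these data known. As alternatives the pseudocount was set to 0.5 or 10, the filter was dropped or raised to 100, lines were brought to an equal total or quantile normalized, limma was run without trend, with robust eBayes, with array weights or with depth as a covariate, and lines were left out singly or as the pair of LPD line 4 and NPD line 15. Leaving out LPD line 40 with NPD line 15, and Lars2 from the mitochondrial list, was chosen after seeing the data. No symbol was listed more than once, so summing rows could not change a value.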

Additional observations from a re-analysis of the deposited data

Results flagged for a closer look

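In groups of 5 lines, a line was taken to stand apart when its gap to the nearest other line exceeded 0.71 of the range of the group (Dixon's test at 95%). Of 72 groups (36 genes in each diet), 7 had such a line, where chance gives 3.6. Farsb in LPD line 20 (gap 0.829 of the range) was at 3692, against 2058 to 2336 in the other LPD lines. Sars in NPD line 8 (0.727) was at 7045, against 4600 to 5268, and Wars2 in the same line (0.788) at 134, against 62.0 to 77.2. Aars2 in NPD line 15 (0.897) was at 747.5, against 947.0 to 969.9 in the other NPD lines. In NPD line 51, Mars2 (0.785) was at 381, against 327 to 339, and Nars2 (0.818) at 188, against 258 to 273. Pars2 in NPD line 36 (0.735) was at 222, against 199 to 205. Sars and Wars2 lie on chromosome 3, whose median was high in NPD line 8.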

How the results depend on the processing

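By limma, Fars2 kept an unadjusted p under 0.05 in every alternative, Aars in all but that without LPD line 4 and NPD line 15, and Cars in all but that and the depth covariate, while Gars and Cars2 lost it in most (log2 fold changes of 0.13 to 0.22 and -0.33 to -0.18). Over the alternatives 33 member values lost and 7 gained an unadjusted p under 0.05, and 751 stayed on the same side of that threshold. None of the called values changed sign, but values not called could, such as Iars, from -0.03 to 0.16. The members at an unadjusted p under 0.05 were 5, but 3 with no filter, 3 with robust eBayes, 2 with the depth covariate, 2 without LPD line 4 and NPD line 15, and 3 to 6 with each line left out. By the exact test they were 5, 3 to 5 with each line left out, 3 without LPD line 4 and NPD line 15 and 2 without LPD line 40 and NPD line 15. Pairs at an exact p under 0.05 were 4, 4 to 5 with each line left out and 2 without LPD line 4 and NPD line 15. Genes at an adjusted p under 0.1 were 0, but 1 with array weights, 0 to 40 with each line left out (40 without LPD line 40) and 21 without LPD line 40 and NPD line 15, and no synthetase gene was among them. Atf4, Chac1 and Sesn2 were among the 40 genes without LPD line 40. The cytosolic median stayed between 0.01 (without LPD line 20) and 0.13 (with the depth covariate) and no median moved beyond the spread between lines. The median r with Atf4 of the cytosolic enzymes, 0.51, was 0.064 without the 2 lines farthest in Atf4, and that of the mitochondrial enzymes, 0.07, was 0.18 with diet means removed and -0.35 without those lines. The cause of these changes was not tested. Depth limits Wars2 and other low genes in LPD lines 4, 6 and 40. No paired analysis was possible because the diets share no line numbers.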
